A study of Mus musculus with 6 samples.

Results

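The amino acid stress response and the unfolded protein response are programmes by which a cell adjusts protein synthesis and folding. A set of 35 genes of these programmes was followed by symbol through the 24391 gene symbols of the deposited count table, 19 in the amino acid arm and 16 in the unfolded protein arm. All 35 were found and all 35 passed the low-count filter, which left 15925 genes for the test. The members were chosen by gene function with results of this contrast in view, and 1 was selected on its fold change between these genotypes: Aldh18a1 was noticed because it was higher in the null libraries. Its difference between genotypes is therefore a description with no test, and the fold changes of the other members are given in the same way.

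The tissue was the hemibrain of the pup on the day of birth (postnatal day 0), with 1 RNA-seq library per pup. The groups were Celf2 -/- (null, pups 2, 4 and 10) and Celf2 +/- (heterozygous, labelled control, pups 6, 7 and 11). CELF2 is an RNA-binding protein, and the controls carry 1 disrupted allele as well, so there was no wild-type group. The labels give no strain, litter or batch and do not describe how the allele was made, and the p-values measure the spread between these pups only.

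Library totals lay between 28831997 and 36531980 counts. Levels are CPM, the usual depth-scaled counts, with library sizes scaled by TMM factors. Values per library are listed for heterozygous pups 6, 7 and 11 and then for null pups 2, 4 and 10. Celf2 measured 459, 403 and 362 CPM in the heterozygous pups, then 448, 390 and 331 CPM in the nulls, so gene totals do not check the genotype labels and every direction below rests on those labels. The ribosomal RNA precursor Rn45s took 11.8% of counts in null replicate 2 and at most 1.27% in the others. Y-linked counts were present in heterozygous replicates 6 and 11 and null replicate 2, and absent in the other 3 libraries. All 10 neuronal markers were detected in every library, with a summed level of 6658 to 7579 CPM. Of these, 6 had positive and 4 negative log2 fold changes, with a median of 0.04. Without overlap, 4 were higher in null (6.21% of all genes tested), Dcx and the cortical factors Neurod2, Neurod6 and Tbr1. DESeq2 called Neurod6 and Tbr1, where 0.402% of all genes were called. All 5 tested hindbrain Hox genes were lower in null without overlap (6.47% of all genes tested), DESeq2 called 3 of them, and the summed level of the list was 13.2, 56.1 and 7.83 CPM in heterozygous and 2.68, 5.13 and 1.5 CPM in null libraries. Neither edgeR nor limma-voom called any gene of these 2 lists. An unadjusted edgeR p below 0.05 was found for 4 of the 10 neuronal and 4 of the 5 tested Hox genes (7.06% of all genes tested, both directions). The part of tissue content in the values below was not tested. The 4 globin genes of the erythroid list had 0 counts in every library. Because these are whole hemibrains, fewer cells of a type and less RNA per cell cannot be told apart.

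When amino acids run short, or when unfolded proteins build up in the endoplasmic reticulum (ER), kinases phosphorylate the initiation factor eIF2. General translation then slows while the transcription factor ATF4 is made, and ATF4 activates genes for amino acid synthesis and uptake. In parallel, the ER membrane proteins IRE1 (gene Ern1) and ATF6 respond to unfolded proteins. IRE1 splices the Xbp1 transcript, ATF6 is cut to release a transcription factor, and both raise the chaperones and disulfide isomerases of the ER. Much of this control acts on translation, splicing and cleavage, none of which gene counts measure.

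Some promoters of the members hold sequence elements known to be read by these factors. RefSeq promoters on GRCm38.p6, from 250 bases before to 50 bases after the annotated start, were matched for 32 of the 35 members (34 promoters). Atf6, Manf and Slc7a3 were not matched. The ER stress element, searched as CCAAT and CCACG with 9 bases of any kind between them on either strand, was found in 7 of the 34 promoters (20.6%), against 0.119% of all 32851 promoters. The members were chosen as known genes of these programmes, so this share is a description and no independent support. Its 8 matches are shown because in all of these genes except Dnajc3 the lowest libraries were null replicate 10 and heterozygous replicate 11. That order was not particular to genes with the element. Pdia3, Pdia4, Sdf2l1 and Xbp1, whose promoters had no match to it, had the same lowest libraries. The part of the element in this order was not tested. Capitals mark the element, read on the coding strand, with 5 bases on each side.
Hspa5, chr2:34772020-34772048 (+): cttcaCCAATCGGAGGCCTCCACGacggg
Calr, chr8:84847070-84847098 (-): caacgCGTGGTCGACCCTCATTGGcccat
Hsp90b1, chr10:86705633-86705661 (-): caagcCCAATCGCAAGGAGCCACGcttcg
Hsp90b1, chr10:86705528-86705556 (-): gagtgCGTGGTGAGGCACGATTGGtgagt
Canx, chr11:50325795-50325823 (-): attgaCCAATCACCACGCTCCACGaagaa
Pdia6, chr12:17266486-17266514 (+): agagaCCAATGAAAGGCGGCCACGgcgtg
Dnajc3, chr14:118937822-118937850 (+): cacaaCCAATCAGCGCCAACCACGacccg
Creld2, chr15:88819515-88819543 (+): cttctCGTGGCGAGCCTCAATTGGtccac
The copies in Calr and Creld2 and the second copy in Hsp90b1 lie in reverse, with CCACG written as CGTGG. Each element ended between 47 and 194 bases before the start. The shorter ER stress element II, searched as ATTGG and CCACG with 1 base between them on either strand, was found in 1 member promoter and in 0.0365% of all promoters.
Herpud1, chr8:94386372-94386392 (+): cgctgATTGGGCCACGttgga

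The composite element read by ATF4 together with C/EBP proteins, searched as TGATGNAA on either strand, was found in 6 of the 34 member promoters (17.6%) and in 3.97% of all promoters. Herpud1 is the 1 member with both kinds of element. The matches are shown because they fall on textbook ATF4 targets, and they show which ones share the core TGATGCAA.
Asns, chr6:7693220-7693237 (-): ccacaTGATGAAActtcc
Pycr1, chr11:120643839-120643856 (-): gtgtaTGATGCAAtgcac
Slc7a11, chr3:50443667-50443684 (-): gtggcTGATGCAAacctg
Slc7a11, chr3:50443648-50443665 (-): agaatTTGCATCAtcatg
Chac1, chr2:119351044-119351061 (+): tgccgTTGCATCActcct
Herpud1, chr8:94386312-94386329 (+): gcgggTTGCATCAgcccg
Trib3, chr2:152344034-152344051 (-): caggtTTACATCAgccgg
TTGCATCA is TGATGCAA on the other strand. The Trib3 match lies 15 bases into the transcript and the others lie before the start. The element TGACGTGG, read by XBP1 and ATF6, was in 0 of the 34 member promoters and in 0.676% of all promoters. No match overlapped a match to another of these elements. A match is a description of letters in this window and does not show binding. The shares among members also depend on the choice of members by function.

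Levels between genes were compared per length, as RPKM (CPM per kilobase of the deposited gene length), over the 6 libraries. The most abundant members were genes of ER folding, though not all genes of that group were abundant. Sdf2l1 was at 5.53 ± 2.3 RPKM and Dnajc3 at 9.16 ± 0.618 RPKM. Calr, a calcium-binding lectin chaperone, was at 244 ± 62.1 RPKM, Hsp90b1, the ER form of HSP90, at 130 ± 21.3 RPKM, and Hspa5, the master chaperone BiP, at 121 ± 34.4 RPKM (mean ± SD, n = 6). The neighbours Hsp90b1 and Hspa5 did not differ beyond their spread. Atf4, at 90.2 ± 12.5 RPKM, stood among the chaperones, next to Canx at 91.5 ± 9.55 RPKM, and within the spread of that gene. In the middle were the serine and asparagine enzymes, with Asns at 39.3 ± 5.44, Psat1 at 38.4 ± 4.12 and Phgdh at 25.9 ± 1.55 RPKM. Trib3, a pseudokinase induced late in stress, was the lowest at 0.826 ± 0.301 RPKM, with as few as 27 counts in a library.

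**Figure D1:**
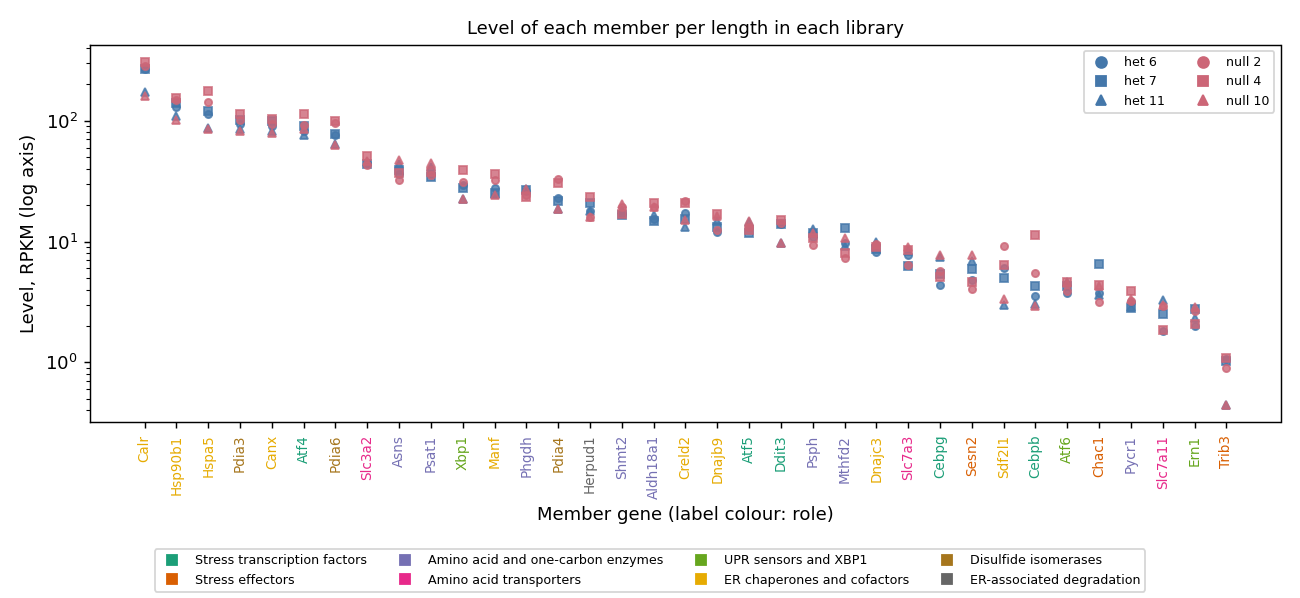
Level of each of the 35 members in RPKM (log axis) in 3 heterozygous (blue) and 3 null (red) libraries, ordered by mean, with label colour giving the role. Levels run from Calr at a mean of 244 RPKM to Trib3 at 0.826 RPKM, and the triangles, heterozygous replicate 11 and null replicate 10, lie lowest for most ER chaperones.

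Between genotypes, 0 of the 35 members were called by edgeR's quasi-likelihood test at an adjusted p of 0.05, where 0.00628% of all genes were called. DESeq2 called 1 member, where 0.402% of all genes were called, and that member was Aldh18a1, whose difference chose it. limma-voom called 0. At an unadjusted edgeR p of 0.05, 1 member counted, Aldh18a1 again, where 7.06% of all genes did, and 4.13% of all genes did so with a higher level in null. Over the other 34 members the edgeR adjusted p lay between 0.717 and 0.995. Of the 35, 27 had positive log2 fold changes (77.1%), against 49.7% of all genes tested, and the median was 0.08 against -0.001. By arm, 15 of 16 were positive in the unfolded protein arm and 12 of 19 (63.2%) in the amino acid arm. The ER chaperones and isomerases, all positive, mostly shared 1 order of libraries and are not independent. Aldh18a1, selected on its difference, is among the 27. With library size alone, which moved the median over all genes to -0.09, 16 of the 35 were positive. Without null replicate 4 the number was 20.

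**Figure D2:**
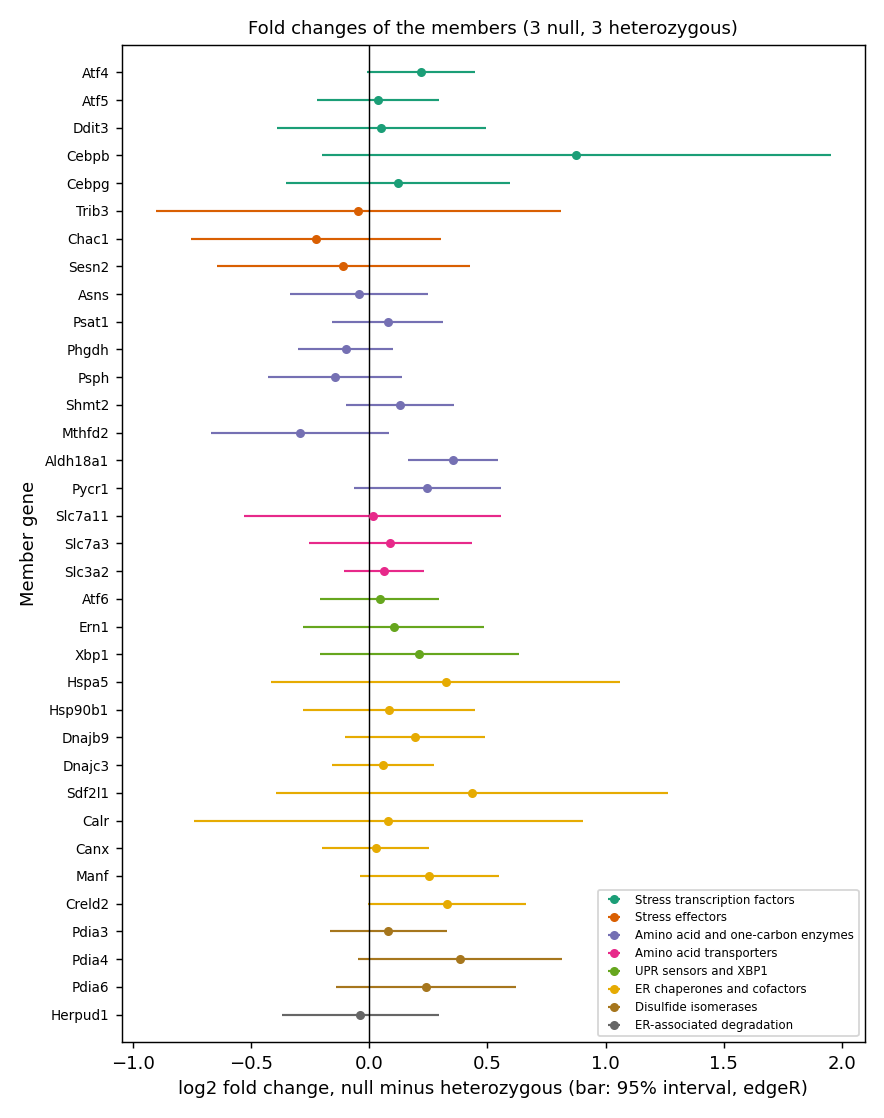
log2 fold change of each member, null minus heterozygous, with its 95% interval from the edgeR fit (3 libraries per group), coloured by role. The intervals of 34 members include 0, and that of Aldh18a1, from 0.16 to 0.55, belongs to the gene chosen for this difference.

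Aldh18a1 encodes the enzyme that turns glutamate into the first intermediate of proline synthesis. It measured 53.7, 51.8 and 58.8 CPM in the heterozygous pups, then 67.8, 73.7 and 68.7 CPM in the nulls. All null libraries lay above all heterozygous ones, and the range within each group was narrow. The means were 54.8 ± 3.6 and 70.1 ± 3.15 CPM (SD, n = 3 each), a log2 fold change of 0.36 (SE 0.09). It lay between 0.32 and 0.41 with single libraries left out and was 0.27 with library size alone.

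Pycr1, the reductase that completes proline synthesis in mitochondria, was the other member whose groups did not overlap. It measured 9.17, 8.18 and 8.43 CPM in the heterozygous pups, then 9.45, 11.3 and 9.79 CPM in the nulls. Null replicate 2 lay just above heterozygous replicate 6, and the groups differed by 0.25 on the log2 scale (SE 0.14, interval -0.07 to 0.56). The 2 members without overlap are 5.71% of the set, near the 6.21% of all genes tested that were higher in null without overlap. That share includes Aldh18a1, which was selected on this difference. Pycrl, a related reductase, was at 0.07 (SE 0.15) on the log2 fold change scale. Of the 9 other proline and glutamate genes, 0 were called by edgeR, DESeq2 or limma-voom and 0 had an unadjusted edgeR p below 0.05. Prodh, which breaks proline down and had the smallest p of that list, was at -0.15 (SE 0.19).

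**Figure D3:**
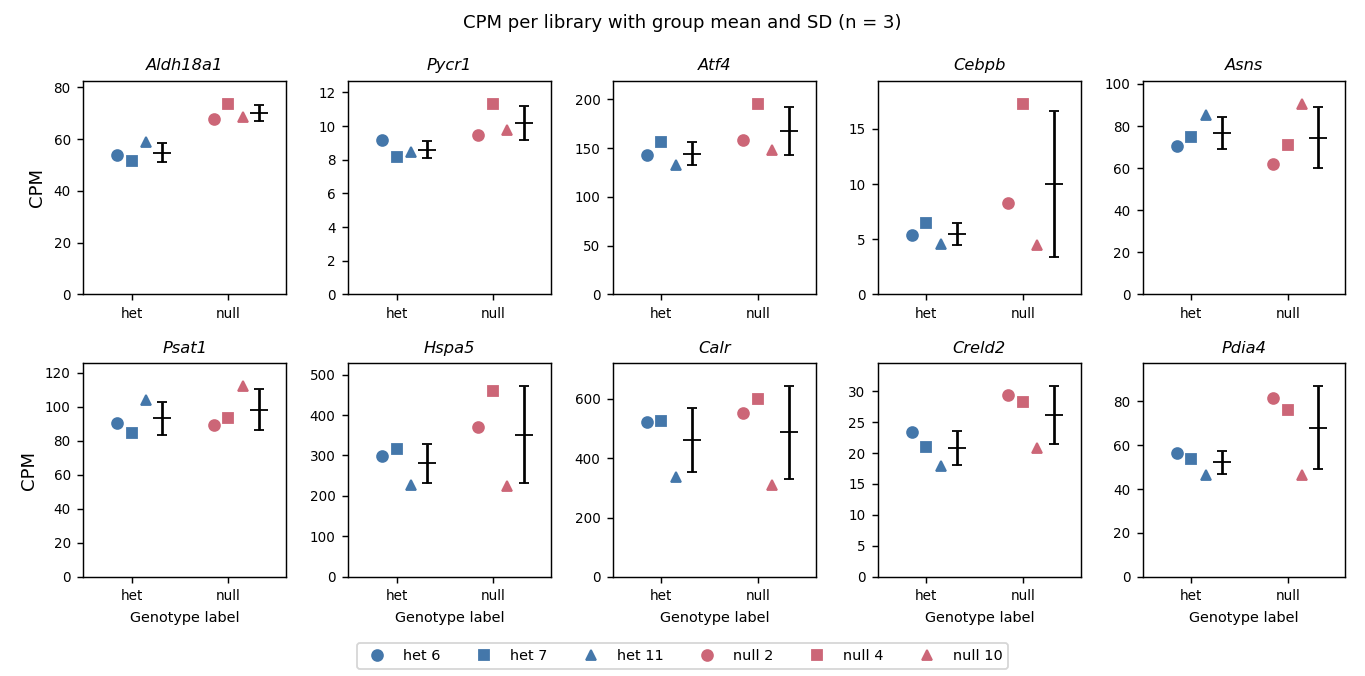
CPM of 10 members in each library, with group mean and SD (n = 3) in black, axes starting at 0. Aldh18a1 and Pycr1 do not overlap between genotypes. For Hspa5, Calr and Pdia4 the null group is split, with replicate 10 beside heterozygous replicate 11. For Creld2 it is split too, with replicate 10 within the heterozygous range and beside heterozygous replicate 7.

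The enzymes of serine synthesis, which feeds glycine and one-carbon units, differed little between genotypes. Phgdh, which commits a glycolytic intermediate to serine, measured 49.3, 50.2 and 51 CPM in the heterozygous pups, then 45.8, 43.9 and 50.6 CPM in the nulls. The heterozygous libraries were nearly level, and null replicate 10 lay within them. Psat1, the transaminase of the next step, measured 90.7, 84.9 and 104 CPM, then 89.2, 93.7 and 112 CPM. Psph, the phosphatase of the last step, measured 16.7, 18 and 19.6 CPM, then 14.3, 16.5 and 18.1 CPM. For Psat1 and Psph the highest library of each group was pup 11 or pup 10, and the groups overlapped. The log2 fold changes were -0.10 for Phgdh (SE 0.09), 0.08 for Psat1 (SE 0.11) and -0.15 for Psph (SE 0.13).

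Serine synthesis is strong in radial glia and astrocytes, so their markers are given beside it. All 10 astrocyte markers had negative fold changes, and their summed level was 2159 to 2470 CPM in heterozygous and 1597 to 2091 CPM in null libraries. Of these, 3 were lower in null without overlap (6.47% of all genes tested). An unadjusted edgeR p below 0.05 was found for 5 (7.06% of all genes tested, both directions). Calls by edgeR, DESeq2 and limma-voom numbered 0. For 9 radial glia markers, 5 of them positive, the summed level was 1092 to 1396 CPM in heterozygous and 1120 to 1400 CPM in null libraries. No marker of these lists was at 0, and their part in the serine values was not tested.

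Asns makes asparagine and is a standard readout of ATF4 activity. It measured 70.4, 74.9 and 85.3 CPM in the heterozygous pups, then 62, 71 and 90.5 CPM in the nulls. Null replicates held both the lowest and the highest value, and the interval of the log2 fold change ran from -0.34 to 0.25. Mthfd2, a mitochondrial folate enzyme, measured 20.2, 26.8 and 19.2 CPM, then 15.1, 16.7 and 22.1 CPM, with the lowest log2 fold change of the set at -0.29 (SE 0.17), and at -0.13 without heterozygous replicate 7. Shmt2, which makes glycine in mitochondria, was at 0.13 (SE 0.10).

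Among the transporters, Slc7a11, which imports cystine for glutathione, varied widely within both groups. It measured 16.7, 23.4 and 30.3 CPM in the heterozygous pups, then 26.8, 16.9 and 27.4 CPM in the nulls, a log2 fold change of 0.01 (SE 0.24). Its partner chain Slc3a2 was steadier, at 126 to 150 CPM over all libraries (0.06, SE 0.08). The cationic amino acid transporter Slc7a3 was at 15.3 to 21.8 CPM (0.09, SE 0.16).

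Of the stress transcription factors, Atf4 measured 143, 156 and 133 CPM in the heterozygous pups, then 159, 195 and 149 CPM in the nulls. Null replicate 10 lay below heterozygous replicate 7. The difference on the log2 scale was 0.22 (SE 0.10, interval -0.01 to 0.45). It was 0.09 without null replicate 4. Ddit3, the pro-apoptotic factor CHOP, measured 12.2, 12.1 and 8.43 CPM, then 12.4, 13.1 and 8.4 CPM, so the library of pup 11 or pup 10 was the low one in each group and the means hardly differed (0.05, SE 0.20). Atf5, an ATF4 relative, measured 26.3, 23.6 and 28.7 CPM, then 26.2, 24.9 and 29.7 CPM. Cebpg, the usual dimer partner of ATF4, was at 20.5 to 36.7 CPM, highest in null replicate 10 and heterozygous replicate 11.

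Cebpb, a factor of stress and of stimulus responses, had the largest log2 fold change of the set, with 1 library far above the others. It measured 5.38, 6.5 and 4.59 CPM in the heterozygous pups, then 8.31, 17.3 and 4.45 CPM in the nulls. Null replicate 4 lay 3.88-fold above null replicate 10, which was the lowest of all. The log2 fold change was 0.88 (SE 0.46), and it was 0.22 without null replicate 4. The immediate-early genes, transcribed within minutes of a stimulus, were high in the same library: all 12 had positive fold changes, and their summed level was 100 to 120 CPM in heterozygous libraries and 397, 1079 and 109 CPM in the null ones. The part of that response in Cebpb was not tested.

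The stress effectors were low, and the sign of their fold changes turned with single libraries. Chac1, which degrades glutathione, measured 5.92, 10.2 and 5.7 CPM in the heterozygous pups, then 4.92, 6.87 and 6.77 CPM in the nulls. Its highest library was heterozygous replicate 7. The log2 fold change was -0.22 (SE 0.24), and 0.09 without that library. Trib3 measured 2.18, 2.09 and 0.912 CPM, then 1.85, 2.22 and 0.918 CPM. Its low libraries were heterozygous replicate 11 and null replicate 10, and its interval ran from -0.90 to 0.81. The fold change was -0.05, and 0.25 without null replicate 10. Sesn2, a leucine sensor that restrains mTORC1, was at 10.8 to 20.5 CPM (-0.11, SE 0.24), with a fold change of 0.06 without null replicate 2.

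The ER chaperones and disulfide isomerases mostly shared 1 order of libraries. All 12 had positive log2 fold changes with a median of 0.22, yet the null group was split. Null replicates 2 and 4 both lay above every heterozygous library, with null replicate 10 not above them, for 8 of the 12 (66.7%), against 6.23% of all genes tested. For 10 of the 12 (83.3%) the lowest libraries were null replicate 10 and heterozygous replicate 11, against 14.8% of all genes tested. The exceptions were Dnajb9 and Dnajc3. This order was read from the values of these same genes, and genes that vary together are not independent observations. The shares are therefore a description and were not tested.

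**Figure D4:**
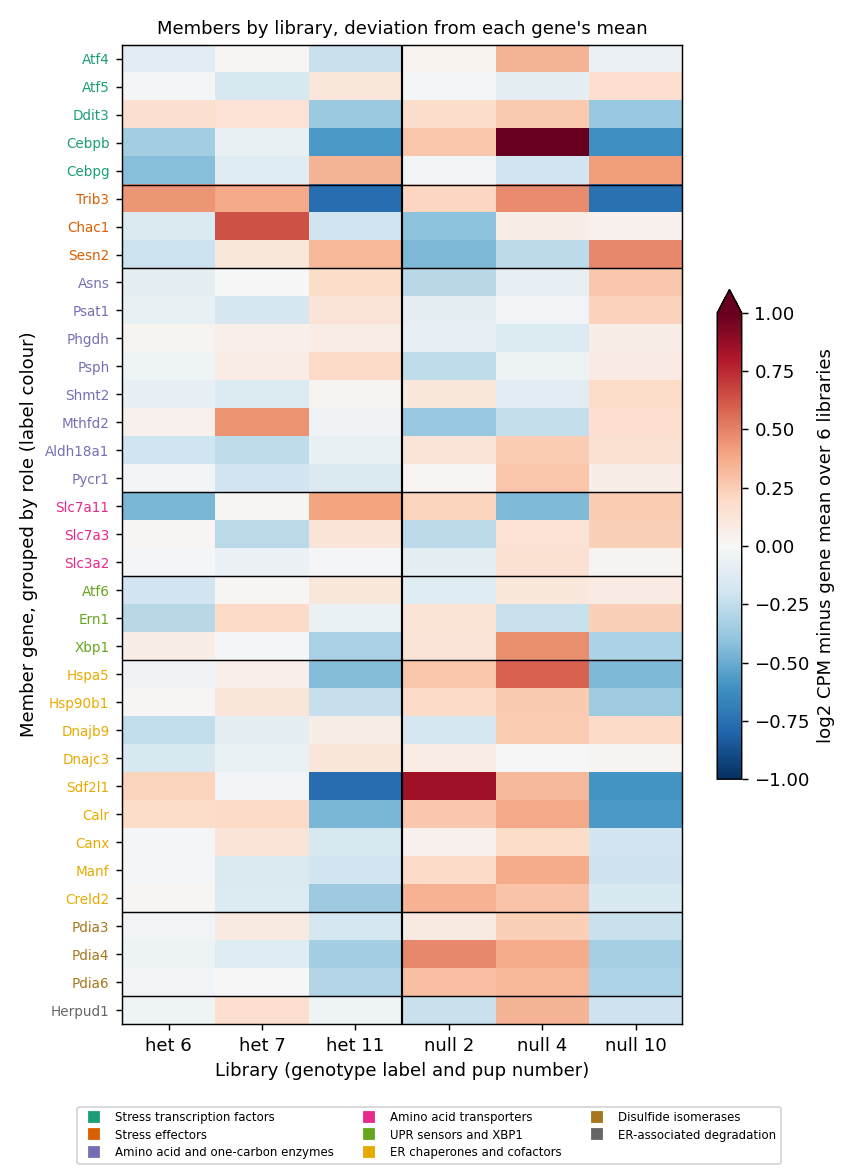
Deviation of log2 CPM from the mean over 6 libraries for each member (rows, by role) in each library (columns, heterozygous left of the line), with colours limited at 1 and Cebpb in null replicate 4 above that. Most ER chaperone and isomerase rows are red in null replicates 2 and 4 and blue in null replicate 10 and heterozygous replicate 11. The amino acid rows share no single order. Null replicate 10 and heterozygous replicate 11 are the highest libraries for Asns, Psat1, Phgdh, Psph, Sesn2, Cebpg, Atf5 and Slc7a11. They are the lowest for Ddit3, Trib3 and Cebpb.

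Hspa5, which holds unfolded chains and keeps the ER sensors silent, measured 299, 317 and 227 CPM in the heterozygous pups, then 371, 460 and 223 CPM in the nulls. The spread within the null group, 2.06-fold, exceeded the difference between groups (log2 fold change 0.32, SE 0.29, or 1.25-fold). The fold change was 0.08 without null replicate 4 and 0.56 without null replicate 10. Calr measured 522, 524 and 335 CPM in the heterozygous pups, then 553, 598 and 309 CPM in the nulls, with log2 means that hardly differed (0.08, SE 0.32). Without null replicate 4 the value for Calr was -0.09, and without null replicate 10 it was 0.32. In both genes the libraries of pups 10 and 11 were set apart from the other 4, whatever the genotype label.

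Creld2, a chaperone secreted under ER stress, measured 23.4, 21 and 17.9 CPM in the heterozygous pups, then 29.3, 28.2 and 20.7 CPM in the nulls. Its log2 fold change was 0.33 (SE 0.15, interval -0.01 to 0.66), and null replicate 10 lay within the heterozygous range. Pdia4, an isomerase that pairs cysteines in secreted proteins, measured 56.4, 53.8 and 46.3 CPM, then 81.7, 75.9 and 46.5 CPM, with the split of the null group again visible (0.38, SE 0.19). Sdf2l1, a BiP cofactor, measured 6.67, 5.59 and 3.33 CPM, then 10.3, 7.14 and 3.74 CPM (0.44, SE 0.37). Its fold change was 0.07 without null replicate 2 and 0.74 without null replicate 10. Manf, a secreted BiP-binding factor, was at 0.25 (SE 0.13) and the isomerase Pdia6 at 0.24 (SE 0.17). Hsp90b1 was at 0.08 (SE 0.16), Pdia3, the isomerase of glycoproteins, at 0.08 (SE 0.11), and the lectin chaperone Canx at 0.03 (SE 0.10).

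The BiP co-chaperones Dnajb9 and Dnajc3 did not follow the split. Dnajb9 measured 22.2, 24.8 and 27.5 CPM in the heterozygous pups, then 23.5, 31.5 and 30.1 CPM in the nulls, so null replicate 10 was high here (0.19, SE 0.13). Dnajc3 was at 42.7 to 51.6 CPM and highest in heterozygous replicate 11. Herpud1, which organises the degradation of ER proteins and carries an ATF4 match and an ER stress element II, measured 33.8, 39.1 and 33.8 CPM in the heterozygous pups, then 29.8, 44 and 30.1 CPM in the nulls. Only null replicate 4 was above the heterozygous range (-0.04, SE 0.15).

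The sensors start the response, and their own transcripts are given next. Atf6 measured 28, 32.1 and 34.5 CPM in the heterozygous pups, then 29.3, 34.4 and 33.7 CPM in the nulls (0.04, SE 0.11). Ern1 measured 7.99, 11 and 9.23 CPM, then 10.6, 8.3 and 11.4 CPM (0.10, SE 0.17). Xbp1, itself a target of ATF6, shared the order of the chaperones, with 66.6, 62.5 and 50.6 CPM, then 69.3, 87.8 and 50.8 CPM (0.21, SE 0.19). Heterozygous replicate 11 and null replicate 10 were its lowest libraries, and the fold change was 0.003 without null replicate 4. The spliced and unspliced forms of Xbp1 are not separated by gene counts.

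The 7 members with an ER stress element were set beside other genes that carry it. The mean deviation of those members from their own averages was -0.0003, 0.04 and -0.26 on the log2 scale in the heterozygous pups, then 0.22, 0.29 and -0.29 in the nulls. For the 14 other tested genes with the element it was -0.15, 0.05 and 0.04 and then 0.17, 0.01 and -0.13, and 9 of the 14 had positive fold changes (median 0.04). That comparison was added after the values were seen and was not tested.

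The pathway around the members, taken from lists of related genes, showed no call by edgeR, DESeq2 or limma-voom in any list. Of 19 other ER folding genes 7 were positive and 12 negative (median -0.04). An unadjusted edgeR p below 0.05 was found for 2, where 7.06% of all genes tested had one in either direction. These were the chaperone Hyou1 (0.22, SE 0.09) and the isomerase Pdia5 (0.38, SE 0.17). The mean deviation of that list stayed between -0.04 and 0.07 in all libraries. Of 16 genes of ER-associated degradation 8 were positive (median 0.004), and 0 had such a p. Those with the smallest p were Ufm1 (-0.14, SE 0.08), a ubiquitin-like modifier, and Sel1l (0.13, SE 0.07), the scaffold of the ER ubiquitin ligase. Of 11 other regulators of the ER response 7 were positive (median 0.03), with the protease Mbtps2, which cuts ATF6, at 0.17 (SE 0.08) and Creb3l2, a membrane-bound factor related to ATF6, at 0.37 (SE 0.17).

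Upstream of ATF4, 7 of 14 genes for eIF2 kinases, eIF2 and its regulators were positive (median -0.02). Those with the smallest p were Ppp1r15a, which restores translation after stress (0.66, SE 0.30), and Gcn1l1, which activates the amino acid sensing kinase (0.12, SE 0.08). Of 18 cytosolic tRNA synthetases, many of them ATF4 targets, 11 were positive (median 0.02) and fold changes ran from -0.11 to 0.17. Lars (0.17, SE 0.10) and Eprs (0.12, SE 0.07) had the smallest p. Of 20 tested among 22 other ATF4 targets 13 were positive (median 0.04). An unadjusted edgeR p below 0.05 was found for 3 (7.06% of all genes tested, both directions). These were Cebpd (0.86, SE 0.33), Slc6a9 (-0.23, SE 0.09), a glycine transporter, and Stc2 (0.41, SE 0.17). Of 10 serine, glycine and folate genes 5 were positive (median -0.01), and 2 had such a p, 1 higher and 1 lower in null. These were Aldh1l2, a mitochondrial folate enzyme, at 0.27 (SE 0.12) and Srr, which makes D-serine, at -0.35 (SE 0.10).

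**Figure D5:**
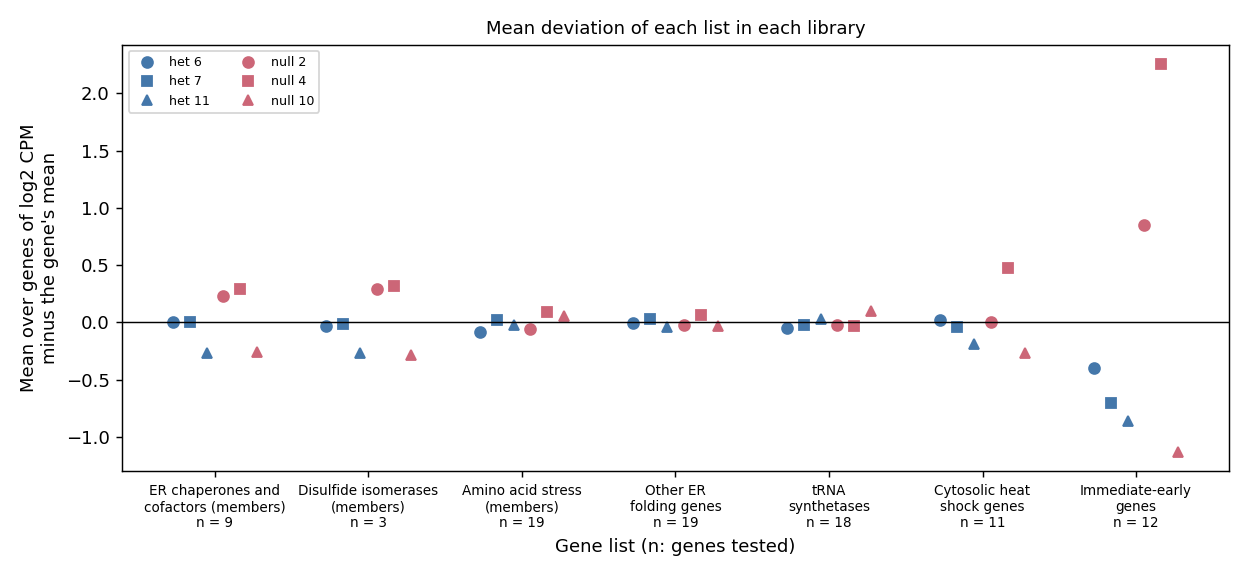
Mean over the genes of each list of log2 CPM minus the gene's own mean, in each library, with n the genes tested. Null replicates 2 and 4 are at 0.23 and 0.29 for the ER chaperones and heterozygous replicate 11 and null replicate 10 at -0.27 and -0.26, while other ER folding genes and tRNA synthetases stay near 0 and immediate-early genes reach 2.26 in null replicate 4.

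Other signals varied over the same libraries. Immediate-early genes deviated by -0.40, -0.71 and -0.86 in the heterozygous pups, then by 0.85, 2.26 and -1.13 in the nulls. Cytosolic heat-shock genes, 9 of 11 positive with a median of 0.14, deviated by 0.02, -0.04 and -0.19 in the heterozygous pups, then by 0.0001, 0.48 and -0.27 in the nulls, so null replicate 2 was not high. The 9 radial glia markers deviated by 0.15, 0.01 and -0.15, then by 0.19, -0.04 and -0.16, so heterozygous replicate 11 and null replicate 10 were the lowest there too. Among the cytosolic heat-shock genes the smallest p belonged to Hsp90ab1 (0.10, SE 0.05), the abundant cytosolic HSP90, and to the co-chaperone Dnaja1 (-0.11, SE 0.06). The part of these signals in the chaperone values was not tested. With null replicate 10 and heterozygous replicate 11 both left out, a choice made after the data were seen, the unfolded protein arm had a median log2 fold change of 0.19 against 0.15 in all libraries, and the amino acid arm 0.07 against 0.05. With single libraries left out the median of the unfolded protein arm ran from 0.08 without null replicate 4 to 0.29 without null replicate 10. It was 0.066 with library size alone and 0.098 with a Y-linked term.

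Mitochondrial chaperones and proteases were level, with 3 of 7 positive (median -0.05), Lonp1 at -0.07 (SE 0.09) and Hspe1 at -0.06 (SE 0.09). Exons of some members overlap those of other genes in the GENCODE M21 annotation, on the opposite strand. These include Ddit3 with Mars over 68 bases, Cebpb with Tmem189 over 312 bases, Atf5 with Nup62 over 82 bases and Psph with Cct6a over 452 bases. Whether reads were counted by strand is not stated in the labels, which leaves the levels of these 4 members uncertain to that extent.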

How the data were processed

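Per the file headers and values, the authors deposited 1 table of raw read counts, whole numbers, with a length in bases for each symbol. Programs listed without role or version in the submitters' processing notes are STAR, cutadapt, CASAVA, Picard, MACS2 and bedtools, beside 2 builds, hg19 and mm9. Per the labels, libraries came from a stranded total-RNA kit, whereas the design text names poly(A) RNA. Which program counted reads, with which annotation and strand, is not given in the sources used here. Reference coordinates and promoters are those of RefSeq on GRCm38.p6 and were not joined to mm9.

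Genes were kept by filterByExpr of edgeR 4.0.16 (R 4.3.3) and tested with its quasi-likelihood test, robust dispersions and TMM factors. P-values were adjusted over all genes by the Benjamini-Hochberg method, with calls at 0.05. Standard errors are the size of the log2 difference over the square root of F, and intervals are at 95%. The smallest chi-square per gene between any pair of libraries was 13.4, so no pair agreed within sampling noise. Alternatives were other size factors, other filters, DESeq2 1.42.0, limma-voom (limma 3.58.1), a Y-linked term, structural RNAs removed and each library left out. The steps were tested on simulated counts. Members and lists were chosen with earlier results of these data known. Values per library are given for a fixed set of regulators and readouts, members without overlap and the 3 smallest p in each direction. For related lists, the 2 smallest p are named, except that 1 gene of the proline and glutamate list is not reported here.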

Additional observations from a re-analysis of the deposited data

How the results depend on the processing

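The number of genes called over the whole table was 1 and moved in every alternative: 0 with DESeq2 size factors, the CPM minimum, limma-voom, no robust estimation and structural RNAs removed, 2 with library size alone and likewise 2 with upper-quartile factors, 3 with no low-count filter, 10 with the Y-linked term, 64 with DESeq2, and 0 with null replicate 10 and heterozygous replicate 11 both left out. It lay between 0 and 4 with single libraries left out. The median log2 fold change of the amino acid arm was -0.037 with library size alone and lay between -0.027 (without null replicate 10) and 0.11 (without heterozygous replicate 11) with single libraries left out. The number of positive members was 16 with library size alone and 20 to 28 with single libraries left out, and the fold change of Aldh18a1 was 0.27 with library size alone, a setting in which the median over all genes was -0.09. Phgdh moved to -0.18 in that setting. The fold change of Celf2 lay between -0.18 and 0.039 with single libraries left out and was positive without heterozygous replicate 6 (0.028) and without null replicate 10 (0.039). The causes were not tested. No paired analysis was possible because the groups share no pup number. Trib3 had the lowest counts, 27 to 81 per library, and the part of depth in its spread was not tested.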
